A study of Rattus norvegicus with 20 samples.

Results

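The transcripts of 9 genes for cation channels linked to stretch sensing and the myogenic tone of arteries were followed in dissected rat kidney microvessels: Trpm4, Trpc6, Trpc1, Trpv4, Trpv2, Piezo1, Piezo2, Pkd1 and Pkd2. They were taken by gene name from a table of 16672 genes, and all 9 were listed and passed the filter on low values. The study measured RNA of these vessels in 20 rats, 5 in each of 4 groups, and its title names myogenic tone in the kidney and the chemokine Ccl2. The rats labelled null were Dahl salt-sensitive (SS) males with the genotype Ccl2-/-, fed chow with 4.0% or 0.3% NaCl for 2 weeks. The SS rats were males of the same strain with the genotype Ccl2+/+ on the same 4.0% or 0.3% NaCl chow for 2 weeks. All 4 groups therefore share the salt-sensitive SS background, in which a high-salt diet raises blood pressure, and the age of the rats is not given in the sources used here.

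Myogenic tone is the constriction of a small artery when the pressure inside it rises. Stretch of smooth muscle leads to the opening of cation channels, the membrane depolarises, voltage-gated calcium channels open and the muscle contracts, and in afferent arterioles of the kidney this response shields the glomerulus from arterial pressure. Channels of the TRP family, the Piezo channels and the polycystins are studied as sensors or amplifiers in this chain, and several of them are also made by endothelium and by tubule cells.

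The libraries held 22 to 47.8 M reads. Vessel and tubule transcripts were both present: of the reads outside mitochondrially encoded genes, smooth muscle markers took 0.127 to 0.244% and endothelial markers 0.128 to 0.248%, beside 0.644 to 0.975% for proximal tubule markers and 0.362 to 1.17% for loop and distal tubule markers. Rat 1 of the SS 4.0% group and rat 4 of the null 0.3% group stood apart from the other libraries on the leading principal components, and where the call of a named gene ends without them, this is said beside it. Ccl2 was detected in every group, at 98.3 ± 21.0 and 173 ± 35.4 normalized counts in null rats on 4.0% and 0.3% NaCl, and 285 ± 113 and 187 ± 28.5 in SS rats on 4.0% and 0.3% (SD, n = 5 each), so its level did not separate the genotypes on low salt. In bulk RNA, fewer cells of a type and less RNA per cell cannot be told apart. Levels below are the authors' normalized counts, which are not divided by transcript length, so levels are compared between rats and not between genes.

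In SS rats on high salt, transcripts of the depolarising channel Trpm4, the stretch-gated channel Piezo1 and the polycystin Pkd1 were higher than on low salt, by 1.32-fold, 1.24-fold and 1.41-fold. In null rats Trpv4 passed, at 1.26-fold higher on high salt, and Pkd1 lay just outside the threshold. Between genotypes, Trpv4 was 1.29-fold higher in null than in SS rats on high salt, and Piezo1 was 1.33-fold higher in null than in SS rats on low salt. The salt effects on Trpm4 and Trpv4 differed between genotypes by the test of the interaction, in opposite directions. Both calls ended without the libraries that stand apart, as did those of Trpv4 for salt in null rats and Piezo1 on low salt. The SS rats on low salt enter the salt comparison in SS rats, the low-salt genotype comparison and the interaction, so these results share libraries.

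**Figure D1:**
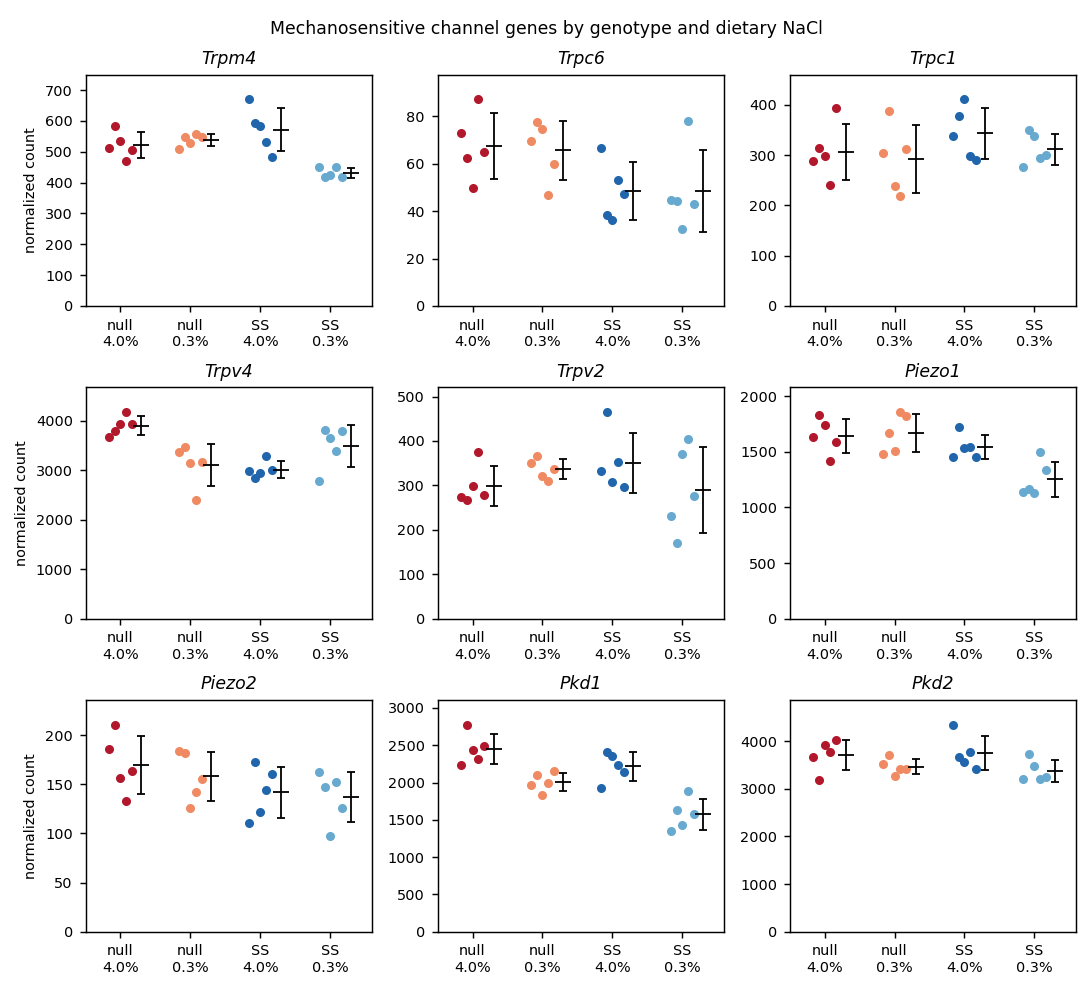
Normalized count (vertical axis, from 0) of each of the 9 genes in null rats on 4.0% and 0.3% NaCl and SS rats on 4.0% and 0.3% NaCl; each point is 1 rat, and the bar beside the points is the mean with the SD of 5 rats. For Trpm4 the 5 SS rats on 0.3% NaCl lie at 418 to 450 and below every other rat, and for Trpv4 the 5 null rats on 4.0% NaCl lie at 3658 to 4168.

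The 9 genes were read against all 16153 tested genes. For high against low salt in SS rats, 3 of 9 passed, all higher, while 17.3% of all tested genes passed and 9.52% passed as higher (limma, adjusted p under 0.05). In null rats 1 of 9 passed, as higher, beside 5.52% of all genes and 3.06% as higher. For null against SS rats on high salt 1 of 9 passed, as higher, beside 8.52% of all genes and 3.70% as higher. On low salt 1 of 9 passed, also as higher, beside 0.557% and 0.452%. For the interaction 2 of 9 passed, beside 2.53% of all genes, 1 as higher (beside 0.774%) and 1 as lower (beside 1.76%). Counted by groups that did not overlap, 2 of 9 were higher on high salt in SS rats (Trpm4 and Pkd1, beside 5.02% of all genes), 2 in null rats (Trpv4 and Pkd1, beside 5.60%), 1 in null against SS rats on high salt (Trpv4, beside 3.89%) and 1 on low salt (Trpm4, beside 2.10%). With so few genes, each of these counts turns on 1 or 2 of them.

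The median log2 difference over the 9 genes was 0.08 for salt in null rats and 0.15 in SS rats, against medians of 0.00 over all tested genes in both genotypes. It was 0.09 for null against SS rats on high salt and 0.28 on low salt, where the medians over all genes were again 0.00. Averaged over both genotypes, all 9 genes had a positive salt difference, with values of 0.03 to 0.39, and 2 of them passed, Pkd1 and Trpm4, beside 21.2% of all genes and 11.0% as higher. Within genotypes, 3 of 9 salt differences were negative in null rats and 1 of 9 in SS rats. Of all 16153 tested genes, 8012 had a positive average salt difference. Averaged over both diets, 8 of 9 had a positive null minus SS difference, beside 8185 of 16153 tested genes. Of the 9, 2 passed as higher, Piezo1 and Pkd1, beside 8.36% of all genes and 4.02% as higher.

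**Figure D2:**
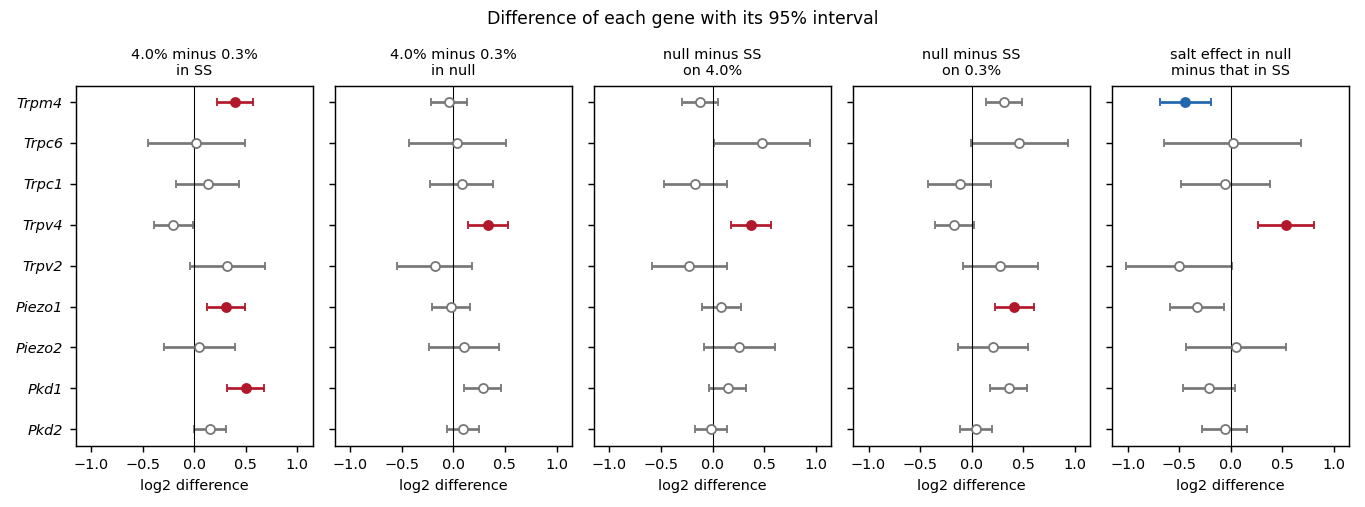
Log2 difference (horizontal axes) of each gene in 5 comparisons, with its 95% interval from limma; filled red points are higher and filled blue points lower at an adjusted p under 0.05, and open points did not pass. Trpm4, Piezo1 and Pkd1 are filled for salt in SS, at 0.40, 0.31 and 0.50, and Trpv4 for salt in null, at 0.34.

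The sequences before the start of 3 of these genes are shown because Trpm4 and Pkd1 were the members with a salt effect in SS rats in every fit with 1 library left out, and Trpv4 the one with a difference between genotypes on high salt. They are the 250 bases before the gene start, from RefSeq on build GRCr8, which is not the build of the deposited table, 5′ to 3′ on the strand of the gene, with each SP1 box, the letters GGGCGG on either strand, in capitals. Trpm4 lies at chr1:104948237-104948486 on the minus strand, Trpv4 at chr12:47598938-47599187 on the plus strand and Pkd1 at chr10:14078429-14078678 on the plus strand.
Trpm4: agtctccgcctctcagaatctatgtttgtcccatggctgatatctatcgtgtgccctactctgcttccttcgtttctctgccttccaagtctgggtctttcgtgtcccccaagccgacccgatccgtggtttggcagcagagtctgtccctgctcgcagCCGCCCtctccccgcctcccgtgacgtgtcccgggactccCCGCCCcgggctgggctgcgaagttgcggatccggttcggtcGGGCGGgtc
Trpv4: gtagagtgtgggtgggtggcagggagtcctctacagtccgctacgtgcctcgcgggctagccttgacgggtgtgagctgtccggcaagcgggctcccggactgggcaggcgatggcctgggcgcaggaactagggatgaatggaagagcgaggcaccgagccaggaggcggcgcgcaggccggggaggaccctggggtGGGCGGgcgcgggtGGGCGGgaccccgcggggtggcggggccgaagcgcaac
Pkd1: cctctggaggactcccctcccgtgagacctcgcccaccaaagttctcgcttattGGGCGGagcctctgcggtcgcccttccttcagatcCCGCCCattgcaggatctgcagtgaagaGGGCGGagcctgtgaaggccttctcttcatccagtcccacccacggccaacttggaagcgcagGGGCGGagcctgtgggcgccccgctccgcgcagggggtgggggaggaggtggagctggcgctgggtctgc

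An SP1 box is a letter motif for transcription factors that bind GC-rich promoters. There were 3 boxes in the stretch of Trpm4, 2 in that of Trpv4 and 4 in that of Pkd1. RefSeq promoters were found for 7 of the 9 genes, not for Piezo1 and Trpc1, and 5 of these 7 held at least 1 box, beside 30.5% of all 33469 promoters in the table. A TATA box (TATAAA on either strand) was in 0 of 7, beside 12.9% of all promoters, and a CArG box, the motif of serum response factor that controls many contractile genes, in 0 of 7, beside 1.5%. A site for NF-kB, a factor downstream of inflammatory signals, was in 1 of 7, that of Trpm4, beside 3.54%, and there it overlaps an SP1 box. These matches describe letters and not sites in use. The GC content of the 7 stretches was 58.4 to 72.8%, beside a median of 51.2% over all promoters.

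Trpm4 is a sodium-permeable channel opened by intracellular calcium, and it depolarises the smooth muscle membrane during pressure-induced constriction. Its normalized counts were 670, 592, 583, 533 and 482 in SS rats on high salt, against 450, 419, 424, 449 and 418 in SS rats on low salt. Every SS rat on high salt lay above every SS rat on low salt, and the high-salt rats were the more widely spread, led by rat 1. The log2 difference was 0.40 ± 0.08 (SE; 95% interval 0.22 to 0.57; limma adjusted p = 0.00271). In null rats the counts were 514, 585, 535, 471 and 507 on high salt, against 508, 548, 528, 558 and 548 on low salt. These groups overlapped almost fully, and the difference of -0.05 ± 0.08 did not pass (adjusted p = 0.787).

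The 3 groups other than SS on low salt overlapped for Trpm4, with means of 522 ± 41.9 (null, high salt), 538 ± 20.1 (null, low salt) and 572 ± 70.4 (SS, high salt), beside 432 ± 16.3 in the SS rats on low salt (SD, n = 5 each). The null rats on low salt all lay above the SS rats on low salt, yet the difference of 0.32 ± 0.08 did not pass (adjusted p = 0.0682); without rat 1 of SS on high salt its adjusted p was 0.0352. The interaction, in which the SS salt difference is taken from the null one, was -0.44 ± 0.12 (adjusted p = 0.0481). That call is close to the threshold. With 1 library left out it passed in 3 of 20 fits, those without rat 2 of null on high salt and rats 4 or 5 of SS on high salt, and in the other 17 the adjusted p was 0.0534 to 0.0971. Without the libraries that stand apart it was -0.37 (adjusted p = 0.114). The rise in SS rats passed in 20 of 20 fits with 1 library left out, at 0.34 to 0.46. Averaged over the genotypes the salt difference was 0.18 ± 0.06 (adjusted p = 0.0387), and it passed in 7 of 20 such fits. Without the libraries that stand apart it was 0.15 (adjusted p = 0.0516).

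The TRPC members passed in none of the 7 comparisons by the limma fit of all libraries. Trpc6, a receptor-operated channel gated by diacylglycerol and linked to stretch responses in smooth muscle and podocytes, had a median (range) of 64.9 (49.9 to 87.1) normalized counts in null rats and 47.4 (36.3 to 66.7) in SS rats on high salt. On low salt it had 69.4 (46.6 to 77.5) in null rats and 44.5 (32.6 to 78.1) in SS rats. The groups overlapped on both diets. Its null minus SS difference was nearly equal on high salt, 0.48 ± 0.23, and low salt, 0.46 ± 0.23, and the average of both, 0.47 ± 0.16, did not pass (adjusted p = 0.0664). Without the 2 libraries that stand apart that average was 0.59 and passed (adjusted p = 0.029), as it did by DESeq2 (0.45, adjusted p = 0.0468) and under library weights (0.53, adjusted p = 0.0241). It passed in only 4 of 14 such alternatives, with an adjusted p of up to 0.322. With 1 library left out it passed in 3 of 20 fits, with an adjusted p of up to 0.123. Only 28 to 85 reads per library stand behind the gene. Its salt differences were 0.04 in null and 0.02 in SS rats.

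Trpc1, a subunit of cation channels that respond to receptors and to emptied calcium stores, averaged 306 ± 55.9 and 292 ± 67.1 in null rats on high and low salt, and 343 ± 51.4 and 311 ± 30.7 in SS rats on high and low salt (SD, n = 5 each). Its log2 differences ran between -0.17 and 0.13 over the 2 salt and 2 genotype comparisons, with 95% intervals that reach at most 0.44 upward and -0.47 downward.

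Trpv4 is a calcium-permeable channel opened by swelling, shear and lipid messengers, known in endothelium for dilatation and also made by tubule cells. Its normalized counts were 3658, 3788, 3935, 4168 and 3922 in null rats on high salt, against 3364, 3458, 3140, 2398 and 3163 in null rats on low salt. No null rat on high salt fell within the low-salt range, and rat 4 of the low-salt group was the lowest of all. The log2 difference was 0.34 ± 0.09 (limma adjusted p = 0.0361). The call passed in 13 of 20 fits with 1 library left out, with values of 0.25 to 0.38. Without rats 2, 3, 4 or 5 of null on high salt the adjusted p was 0.0586, 0.0681, 0.0858 and 0.0734. Without rats 3, 4 or 5 of null on low salt it was 0.0592, 0.0893 and 0.0597.

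In SS rats the counts of Trpv4 were 2988, 2836, 2939, 3289 and 3006 on high salt, against 2783, 3799, 3654, 3376 and 3797 on low salt. The high-salt rats lay close together and 4 of 5 low-salt rats lay above all of them, while rat 1 on low salt lay below. The difference of -0.20 ± 0.09 did not pass (adjusted p = 0.138), and it was 0.19 when scaled to the library total, which moved the median of all genes by 0.387. It did pass without rat 1 on low salt, at -0.28 (adjusted p = 0.0348). On high salt, all null rats (3658 to 4168) lay above all SS rats (2836 to 3289), a log2 difference of 0.37 ± 0.09 (adjusted p = 0.018) that passed in 20 of 20 fits with 1 library left out. Scaled to the library total it was 0.37 and did not pass (adjusted p = 0.0587). On low salt the null minus SS difference was -0.17 ± 0.09 (adjusted p = 0.345).

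Group means of Trpv4 were 3894 ± 190 (null, high salt), 3104 ± 417 (null, low salt), 3011 ± 168 (SS, high salt) and 3482 ± 427 (SS, low salt; SD, n = 5 each). Ordered from the highest they ran null on high salt, SS on low salt, null on low salt and SS on high salt, and neighbours in this order overlapped.

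The interaction of Trpv4 was 0.54 ± 0.13 (adjusted p = 0.0303), so its salt effect was the more positive one in null rats. It passed in 14 of 20 fits with 1 library left out. The fits without rats 4 or 5 of null on high salt gave an adjusted p of 0.0628 and 0.0509, those without rats 2 or 3 of SS on high salt 0.0587 and 0.0514, and those without rats 2 or 5 of SS on low salt 0.0564 and 0.0547. Without the 2 libraries that stand apart it was 0.45 (adjusted p = 0.0514), and the salt effect in null rats was 0.25 (adjusted p = 0.0652). Scaled to the library total, which moved the median interaction of all genes by -0.265, it was 0.27 (adjusted p = 0.261). From rat to rat, the deviations of Trpm4 and Trpv4 from their group means had a Spearman rho of -0.64 (permutation p adjusted over 36 pairs of members = 0.0247) but a Pearson r of -0.36 (adjusted p = 0.401).

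Trpv2, a stretch-linked channel of vascular smooth muscle that is also abundant in macrophages, had a median (range) of 280 (267 to 375) and 337 (310 to 366) in null rats on high and low salt, and 332 (297 to 465) and 277 (170 to 404) in SS rats on high and low salt. All 4 ranges overlapped. Its salt difference was -0.18 ± 0.18 in null rats and 0.32 ± 0.18 in SS rats, and the interaction of -0.50 ± 0.25 did not pass (adjusted p = 0.291).

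Piezo1 is a mechanically gated channel that opens with membrane tension, studied in endothelium and in smooth muscle of small arteries. Its normalized counts were 1457, 1727, 1538, 1540 and 1455 in SS rats on high salt, against 1142, 1164, 1134, 1495 and 1334 in SS rats on low salt. Rat 4 on low salt reached into the high-salt range, and the other 4 lay below it. The log2 difference was 0.31 ± 0.09 (limma adjusted p = 0.0224). It passed in 16 of 20 fits with 1 library left out, and the adjusted p was 0.0658 without rat 2 of SS on high salt and 0.0588, 0.0537 and 0.0581 without rats 1, 2 or 3 of SS on low salt.

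In null rats the counts of Piezo1 were 1632, 1827, 1741, 1417 and 1591 on high salt, against 1484, 1669, 1509, 1856 and 1817 on low salt. The groups overlapped, and the difference was -0.02 ± 0.09 (adjusted p = 0.917). Group means were 1642 ± 156 and 1667 ± 171 in null rats on high and low salt, and 1543 ± 111 and 1254 ± 158 in SS rats on high and low salt (SD, n = 5 each), with SS rats on low salt lowest. The interaction of -0.33 ± 0.13 did not pass (adjusted p = 0.176), so the salt effects on Piezo1 were not shown to differ. On low salt, null rats (1484 to 1856) lay mostly above SS rats (1134 to 1495), with a log2 difference of 0.41 ± 0.09 (adjusted p = 0.0381). That call passed in 12 of 20 fits with 1 library left out, with values of 0.37 to 0.48. It ended without rats 3 or 5 of null on high salt (adjusted p = 0.0518 and 0.0521), without rats 2, 4 or 5 of null on low salt (adjusted p = 0.0874, 0.111 and 0.112) and without rats 1, 2 or 3 of SS on low salt (adjusted p = 0.0993, 0.0677 and 0.106). It also ended without the 2 libraries that stand apart (0.37, adjusted p = 0.0674) and when only the compared groups were fitted (adjusted p = 0.0948, and 0.0549 for the salt effect in SS rats). Averaged over both diets, Piezo1 was higher in null rats by 0.25 ± 0.06 (adjusted p = 0.0213), which passed in 20 of 20 fits with 1 library left out.

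Piezo2, the relative of Piezo1 known from touch-sensing neurons and reported in renin and mesangial cells of the mouse kidney, averaged 170 ± 29.5 and 158 ± 25.3 in null rats on high and low salt, and 142 ± 26 and 137 ± 25.7 in SS rats on high and low salt (SD, n = 5 each). The means were higher in null rats on both diets, and the average difference of 0.24 ± 0.12 did not pass.

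Pkd1 encodes polycystin 1, a large membrane protein that pairs with the channel Pkd2 and is mutated in polycystic kidney disease; in arteries the balance of both proteins is linked to stretch sensing. Its normalized counts were 1928, 2406, 2359, 2241 and 2141 in SS rats on high salt, against 1348, 1630, 1425, 1892 and 1580 in SS rats on low salt. No values were shared between the diets, although rat 1 on high salt and rat 4 on low salt came close. Its promoter, with 4 SP1 boxes, is printed beside those of Trpm4 and Trpv4. The log2 difference of 0.50 ± 0.09 was the largest salt difference of the 9 genes in SS rats (95% interval 0.32 to 0.68; limma adjusted p = 0.000482) and passed in 20 of 20 fits with 1 library left out.

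In null rats the counts of Pkd1 were 2238, 2770, 2436, 2316 and 2495 on high salt, against 1962, 2106, 1839, 1992 and 2150 on low salt. The diets did not overlap here either, and the difference of 0.28 ± 0.09 lay just outside the threshold (adjusted p = 0.0536). It passed in 3 of 20 fits with 1 library left out, those without rat 1 of SS on high salt and without rats 1 or 4 of SS on low salt (adjusted p = 0.0302, 0.0443 and 0.0361), and in 9 of 16 other alternatives. Among these 9 were the fit of only the null groups (adjusted p = 0.0173), edgeR (adjusted p = 0.048), DESeq2 (adjusted p = 0.0239) and library weights (adjusted p = 0.011). The interaction was -0.21 ± 0.12 (adjusted p = 0.367). Averaged over the genotypes the salt difference was 0.39 ± 0.06 (adjusted p = 0.000148), and averaged over the diets the null minus SS difference was 0.25 ± 0.06 (adjusted p = 0.0167). Null minus SS, it differed by 0.15 ± 0.09 on high salt (adjusted p = 0.28) and by 0.36 ± 0.09 on low salt (adjusted p = 0.0526), and the low-salt difference passed without rat 3 of null on low salt, rat 1 of SS on high salt or rat 4 of SS on low salt (adjusted p = 0.042, 0.0307 and 0.0133). The group means ran in the order 2451 (null, high salt), 2215 (SS, high salt), 2010 (null, low salt) and 1575 (SS, low salt), with neighbours in this order overlapping in their ranges.

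Pkd2, the cation channel subunit of the polycystin complex, passed in none of the 7 comparisons by the limma fit of all libraries. It averaged 3708 ± 325 and 3466 ± 165 in null rats on high and low salt, and 3751 ± 351 and 3366 ± 229 in SS rats on high and low salt (SD, n = 5 each). Its salt difference was 0.09 ± 0.07 in null rats and 0.15 ± 0.07 in SS rats, and neither passed in that fit. In SS rats it was 0.21 under quantile normalization (adjusted p = 0.0457), 0.23 when scaled without mitochondrially encoded genes (adjusted p = 0.0298) and 0.54 when scaled to the library total (adjusted p = 0.000255), and passed in all 3. Averaged over the genotypes, the salt difference of 0.12 ± 0.05 (adjusted p = 0.0959) also passed under these 3 settings and without rat 2 of null on high salt (0.15, adjusted p = 0.0386). For salt in SS rats, the scaling without mitochondrially encoded genes moved the median of all genes by 0.071. Scaling to the library total moved that median by 0.387, and 55.3% of all genes were called under it. The highest group mean was 1.11 times the lowest for Pkd2, beside 1.56 times for its partner Pkd1, 1.39 for Trpc6, 1.33 for Piezo1, 1.32 for Trpm4 and 1.29 for Trpv4.

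Markers of other cells moved with the salt comparison in SS rats. Loop and distal tubule markers together took 0.472% ± 0.0947 of non-mitochondrial reads in SS rats on high salt (range 0.362 to 0.600%), against 0.946% ± 0.154 on low salt (0.775 to 1.17%; SD, n = 5 each), and 5 of 6 of them fell. All 5 fibroblast markers, 5 of 5 T cell markers and 3 of 5 macrophage markers rose, though T cell markers took at most 0.00541% of reads in any library, while 0 of 8 smooth muscle markers passed by limma, with 1 at an unadjusted p under 0.05. Of 6 pericyte and mesangial markers 2 rose. Together these 6 took 0.0418% ± 0.00941 of non-mitochondrial reads on high salt and 0.0314% ± 0.00796 on low salt. Of 10 endothelial markers 1 rose and 1 fell, and 17.3% of all genes were called. The share of mitochondrially encoded transcripts was 13.3% ± 5.98 in SS rats on high salt and 30.2% ± 8.06 on low salt. A tubule score, the mean log2 level of proximal, loop, distal and collecting duct markers, was 13.42 to 13.55 in SS rats on high salt and 13.66 to 13.99 on low salt, so score and diet did not overlap and cannot be told apart in these rats.

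Markers moved with salt in null rats too. Proximal tubule markers took 0.890% ± 0.0789 of non-mitochondrial reads in null rats on high salt, against 0.738% ± 0.0693 on low salt, and 1 of 7 rose. Loop and distal tubule markers took 0.562% ± 0.031 on high salt and 0.761% ± 0.186 on low salt, and 2 of 6 fell. Of all genes, 5.52% were called for salt in null rats. Mitochondrially encoded transcripts took 13.3% ± 2.83 and 20.5% ± 5.76 of reads on high and low salt (SD, n = 5 each). The salt difference of Trpv4 in null rats was 0.40 with the tubule score as a covariate (adjusted p = 0.0135) and 0.35 with the mitochondrial share (adjusted p = 0.0402), and both passed. Proximal tubule markers alone were not tried as a covariate.

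With the tubule score as a covariate, the salt difference in SS rats was 0.31 for Trpm4 (adjusted p = 0.389), 0.28 for Pkd1 (adjusted p = 0.429) and -0.0026 for Piezo1 (adjusted p = 0.996), so all 3 calls ended, and 0.241% of all genes passed. With the mitochondrial share as a covariate Pkd1 passed, and Trpm4 (0.31, adjusted p = 0.136) and Piezo1 (0.24, adjusted p = 0.3) did not. With the smooth muscle score as a covariate all 3 passed. For Trpv4 on high salt, the null minus SS difference was 0.24 with the tubule score (adjusted p = 0.161), where 6.38% of all genes passed. The interactions ended with the tubule score, where 0.0557% of all genes passed (Trpm4 -0.38, adjusted p = 0.394, and Trpv4 0.32, adjusted p = 0.482) and with the mitochondrial share (adjusted p = 0.138 and 0.0809).

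Smooth muscle markers took 0.195% (high salt) and 0.215% (low salt) of non-mitochondrial reads in null rats, against 0.175% and 0.164% in SS rats. With the smooth muscle score as a covariate, the average null minus SS difference was 0.18 for Piezo1 (adjusted p = 0.34) and 0.15 for Pkd1 (adjusted p = 0.36), and the low-salt difference of Piezo1 was 0.33 (adjusted p = 0.258), so these calls ended. Few genes of any kind passed with this covariate: 8 of 16153 for the average, or 0.0495%, and 0 on low salt by limma, with 1811 at an unadjusted p under 0.05.

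**Figure D3:**
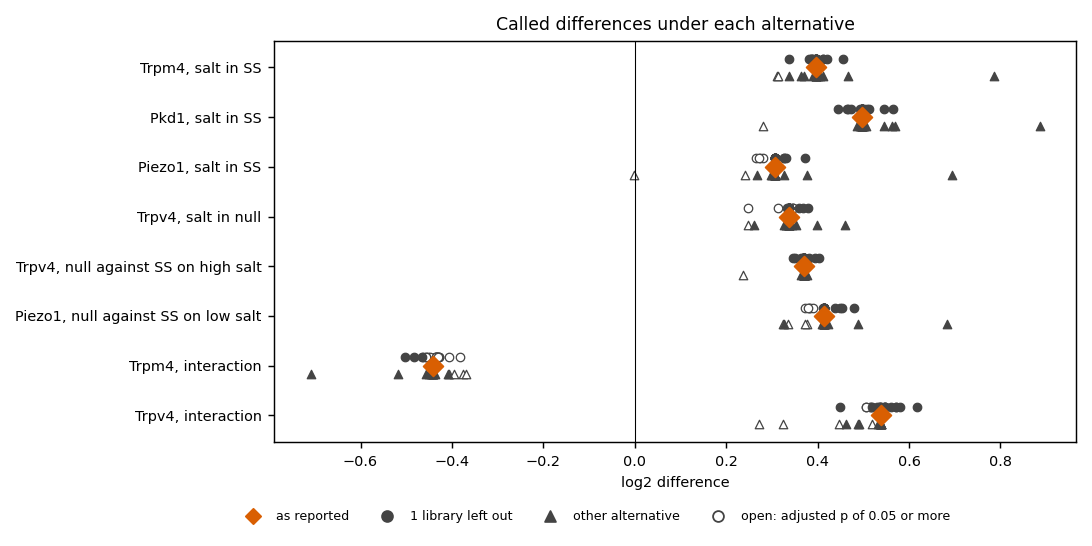
Log2 difference (horizontal axis) of the called genes as reported (diamonds), with 1 library left out (circles) and under the other alternatives (triangles); open symbols have an adjusted p of 0.05 or more. Trpm4 and Pkd1 in SS rats stay filled in every circle, and the triangle of Piezo1 at -0.0026 is the fit with the tubule score.

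The remaining TRP and polycystin genes give the setting of the members. In SS rats on high salt, 5 of 22 tested rose and 1 fell, beside 17.3% of all genes called. Those of smallest p were Trpm3 (0.64 ± 0.14), a steroid-activated cation channel, Trpv5 (0.71 ± 0.15), the calcium entry channel of the distal tubule, Pkd2l2 (-1.42 ± 0.33), a polycystin relative, and Trpm2 (0.53 ± 0.15), an oxidant-sensitive channel. In null rats 0 of 22 passed by limma, beside 5.52% of all genes, with 5 at an unadjusted p under 0.05, 0 called by edgeR and 3 by DESeq2. Without the libraries that stand apart 2 passed in null rats, beside 6.98% of all genes. Null against SS rats gave 2 higher and 2 lower on high salt, beside 8.52% of all genes called. These were Trpv6 at -1.84 ± 0.34, Trpv5 at -0.70 ± 0.15, Mcoln3 at 1.08 ± 0.22 and Pkd2l2 at 1.40 ± 0.33. On low salt 1 was higher, Trpm2 at 0.71 ± 0.15, beside 0.557% of all genes called. The low-salt call of Trpm2 ended by edgeR (adjusted p = 0.0562) and without the libraries that stand apart (adjusted p = 0.0688). The interaction was called for Trpv5 (-1.18 ± 0.22) and Trpv6 (-1.97 ± 0.48), both epithelial calcium channels, beside 2.53% of all genes. That of Trpv6 ended without the libraries that stand apart (-1.62, adjusted p = 0.0697). With the tubule score as a covariate 0 of these 22 genes passed for salt in SS rats or for the interaction by limma, with 3 and 4 at an unadjusted p under 0.05, and on high salt 2 were higher and 2 lower in null against SS rats. Of all genes, 0.241% passed with this covariate for salt in SS rats and 6.38% on high salt.

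Channels of other families that respond to stretch or are made with such channels were next, and 21 were tested. In SS rats on high salt 5 rose and 2 fell, beside 17.3% of all genes called. Those of smallest p were Kcnk2 (1.43 ± 0.30), the stretch-activated potassium channel TREK-1, Panx1 (0.68 ± 0.19), a release channel for ATP, and the epithelial sodium channel subunits Scnn1a (-0.70 ± 0.16) and Scnn1g (-0.53 ± 0.15). Kcnk2 rose in null rats too, by 1.58 ± 0.30 (adjusted p = 0.00552), the single gene of this list that passed there, beside 5.52% of all genes. On high salt Scnn1a (0.59 ± 0.16) and Scnn1g (0.55 ± 0.15) were higher in null than in SS rats, beside 8.52% of all genes called. On low salt 0 passed by limma, beside 0.557% of all genes, with 6 at an unadjusted p under 0.05, 0 called by edgeR and 2 by DESeq2. With the tubule score 0 of the 21 passed for salt in SS rats by limma, with 3 at an unadjusted p under 0.05, and 1 passed in null rats.

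Of 23 partners and regulators of the members, 2 rose and 1 fell in SS rats on high salt, beside 17.3% of all genes called. In null rats 2 rose, beside 5.52% of all genes called. Abcc9, the sulfonylurea receptor of vascular potassium channels, differed by 1.18 ± 0.25 in null and 0.83 ± 0.25 in SS rats, and Stim1, the calcium sensor of the endoplasmic reticulum, by 0.29 ± 0.08 in null and 0.28 ± 0.08 in SS rats. In null against SS rats on high salt 5 were higher, beside 8.52% of all genes called and 3.70% as higher. Among them were Cdh5 of endothelial junctions at 0.60 ± 0.15, Abcc9 at 0.90 ± 0.25, Dnajb11 at 0.35 ± 0.10 and Stim1 at 0.28 ± 0.08. For the interaction, Mdfi, whose product binds Piezo channels, had a difference of -0.87 ± 0.22, beside 2.53% of all genes called. Without the libraries that stand apart, 3 rose and 3 fell for salt in SS rats, 1 was higher for null against SS rats on high salt and 0 passed for the interaction by limma, with 4 at an unadjusted p under 0.05. Of all genes, 22% passed without those libraries for salt in SS rats and 5.27% on high salt. The high-salt calls of Abcc9, Dnajb11 and Stim1 ended there (adjusted p = 0.0579, 0.0521 and 0.117), and Mdfi was at -0.88 (adjusted p = 0.0669).

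The genes that act after the channels in myogenic contraction numbered 39. In SS rats on high salt 5 rose and 1 fell, beside 17.3% of all genes called. The 4 of smallest p were Arhgef1 (0.45 ± 0.08), an activator of the small GTPase RhoA, Cacnb3 (0.65 ± 0.15), a subunit of voltage-gated calcium channels, and the phospholipases Plcb3 (0.40 ± 0.10) and Plcg1 (0.30 ± 0.08). In null rats 1 rose, Itpr1, a calcium release channel of internal stores, at 0.28 ± 0.07, beside 5.52% of all genes called. Null against SS rats on high salt gave 6 higher and 1 lower, beside 8.52% of all genes called and 3.70% as higher. Among them were the kinase Rock2 at 0.42 ± 0.10, Cacnb3 at -0.56 ± 0.15, the ryanodine receptor Ryr2 at 0.78 ± 0.21 and Itpr1 at 0.25 ± 0.07. Without the libraries that stand apart the high-salt count was 1 higher and 1 lower, beside 5.27% of all genes, and the calls of Ryr2 and Itpr1 ended (adjusted p = 0.054 and 0.0858). Arhgef1 was also higher in null than in SS rats on low salt (0.36 ± 0.08, adjusted p = 0.0485), which neither edgeR nor the fit without those libraries called, and its interaction was -0.45 ± 0.12 (adjusted p = 0.0436), which also ended without those libraries (-0.43, adjusted p = 0.0769). Averaged over the diets, 10 of 39 were higher in null rats and 0 were lower, beside 8.36% of all genes called and 4.02% as higher, and 8 were higher without the libraries that stand apart. The median difference of this list was 0.20 against 0.00 over all tested genes. With the smooth muscle score as a covariate, 0 of the 39 passed for that average by limma, with 5 at an unadjusted p under 0.05, where 0.0495% of all genes passed. The tubule score in its place gave 12 of the 39 and 12.7% of all genes.

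The members were next compared from rat to rat, as deviations from the group mean over 20 libraries, which share the libraries' scaling and tissue makeup. Of 36 pairs of members, 1 passed by Pearson correlation, Piezo1 with Pkd1, at r = 0.74 (permutation p = 0.00079, adjusted 0.0284) and Spearman rho = 0.71 (permutation p = 0.00137, adjusted 0.0247). Without the 2 libraries farthest from the median of Piezo1 the r was 0.66, and without the 2 libraries that stand apart it was 0.79. Of 63 relations between a member and a cell type marker score, 0 passed after adjustment by the permutation test, with 12 at an unadjusted p under 0.05 for r. The largest were those of Pkd1 with pericyte and mesangial markers (r = 0.68, rho = 0.58) and with smooth muscle markers (r = 0.64, rho = 0.52), and that of Trpv4 with proximal tubule markers (r = 0.64, rho = 0.54), each with an adjusted permutation p of 0.113 for r. Without the 2 libraries farthest on the x axis these r were 0.46, 0.51 and 0.59.

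**Figure D4:**
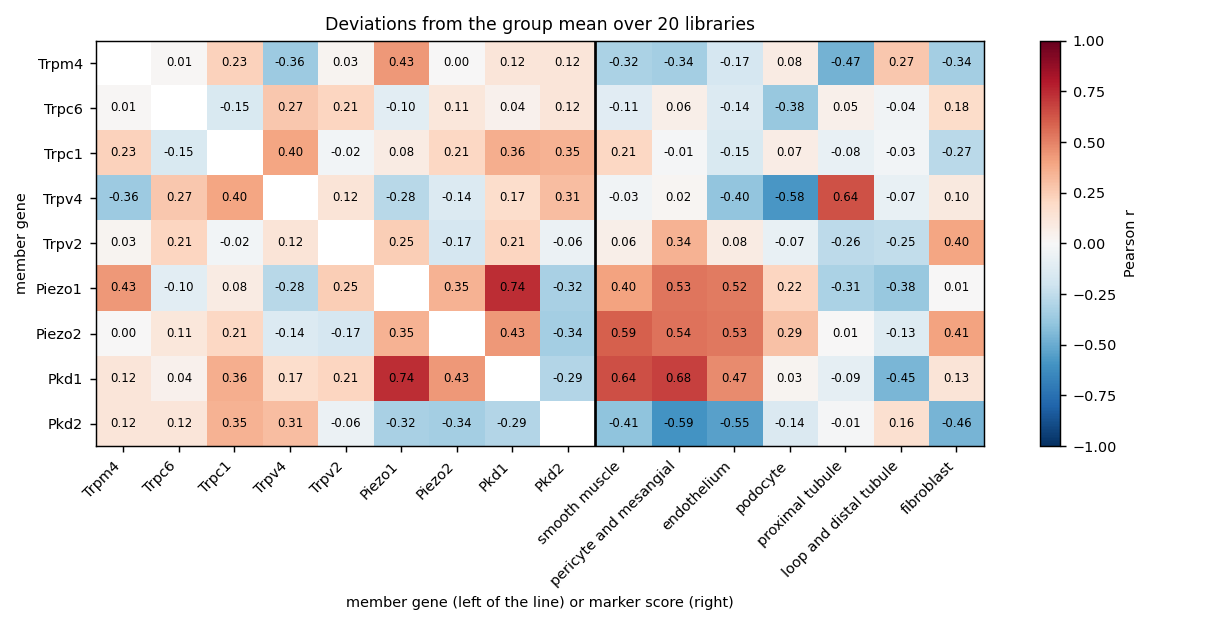
Pearson r (colour scale from -1 to 1, and printed) between deviations from the group mean of the 9 genes with each other, left of the line, and with 7 marker scores, right of it, over 20 libraries. Piezo1 with Pkd1 is the highest of the member pairs, at 0.74.

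Among 12825 genes with a mean of at least 50 normalized counts, the one whose deviations were most like those of Trpm4 was Adat3 (r = 0.86), followed by Itpk1 (0.83) and Psen2 (0.83). For Trpv4 they were Tmem185a (0.90), Lgr4 (0.89) and Foxk2 (0.87). For Piezo1 they were Plekhg5 (0.84), Arhgef1 (0.83) and Ptpn7 (0.81), and for Pkd1 Mta1 (0.87), Setd1b (0.87) and Cdon (0.84). For Pkd2 they were Ptprj (0.88), Tm9sf3 (0.88) and Dipk2a (0.86), and for Trpc6 Ppm1k (0.79), Entrep3 (0.77) and Yipf6 (0.75). For Trpc1 they were Marchf3 (0.76), Srpk1 (0.73) and Myc (0.71), for Trpv2 Dennd4b (0.82), Cd83 (0.80) and Rbm12b (0.80), and for Piezo2 Nkd1 (0.85), Eif5a2 (0.84) and Pcdhga5 (0.82). These were picked as the highest of 12825, so their r is a description of 20 libraries.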

How the data were processed

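RNA-seq of dissected kidney microvessels covered 20 libraries, 5 rats in each of 4 groups set by the labels. Libraries were made from poly A RNA after a DNase step, per the labels' protocols. STAR 2.7.11b, featureCounts 2.0.6 and DESeq2 1.44 with the build mRatBN7.2 are named in the submitters' processing notes, beside Trim Galore and MultiQC; their settings, strand included, are not given in these sources. The values deposited by the authors are normalized counts, a signal equal to the read count over a library-specific factor. Whole reads were recovered from the steps of that signal for 100% of values within 1e-04.

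The test was limma 3.58.1 in R 4.3.3 (lmFit, eBayes with a mean trend) on log2(normalized count + 1), over all 20 libraries in 1 fit of 4 group means, with p-values adjusted by Benjamini and Hochberg over all tested genes of a comparison and a threshold of 0.05. Genes with at least 10 normalized counts in at least 5 libraries were tested, 16153 of 16672, and this log scale makes changes of low genes look smaller. Errors after ± are SE for log2 differences and SD for levels. Nothing in the labels ties rat numbers to a litter or day, and p-values measure the spread between these rats.

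Members and gene lists were chosen with earlier results of these data known. Of each list, up to 4 called genes of smallest p are named per comparison, and for each member the 3 most alike genes. Trpc7, Trpm8, Pkdrej and Asic3 of the lists were not found by name among the 16672 genes, and Trpa1 was below the filter. Pkd1 reads were not checked for related sequences elsewhere in the genome. Correlations used 100000 permutations within groups. Alternatives were pseudocounts of 0.5 and 8, no filter or one of 100, scaling to the library total with or without mitochondrially encoded genes, quantile normalization, library weights, a fit of only the groups compared, rat number as a block, 3 covariates (tubule score, smooth muscle score, mitochondrial share), leaving out libraries, and the recovered reads in edgeR 4.0.16 (TMM, quasi-likelihood), which called 2793 genes for salt in SS, and DESeq2 1.42.0. Counts and called genes of the other lists under these tools, scores and left-out libraries were added after seeing the data. The result of 1 called gene among the partners and regulators is not reported here.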

Additional observations from a re-analysis of the deposited data

Results flagged for a closer look

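By the fit of all libraries, Trpm4 had an interaction of salt and genotype of -0.442 on the log2 scale (limma adjusted p = 0.0481). Its salt differences were -0.05 in null rats and 0.40 in SS rats. This call passed in 3 of 20 fits with 1 library left out. Trpv4 differed in the other direction, with an interaction of 0.539 (limma adjusted p = 0.0303) and salt differences of 0.34 in null rats and -0.20 in SS rats. It passed in 14 of 20 such fits. Both interaction calls ended without the 2 libraries that stand apart (limma adjusted p = 0.114 for Trpm4 and 0.0514 for Trpv4). They also ended with the rat number as a block, the tubule score or the mitochondrial share. Trpc6 in rat 4 of the SS group on low salt had a normalized count of 78.1, far from the next value of 44.9 in its group. This was the single set of values with such a gap among 36 checked, and chance gives about 1 in 20. Without that rat the average null minus SS difference of Trpc6 was 0.56 and passed (adjusted p = 0.0205). It did not pass with all libraries, and passed in 3 of 20 fits with 1 library left out.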

How the results depend on the processing

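Over the 9 genes and 7 comparisons, 1192 of 1260 values with 1 library left out kept their side of the threshold, 55 lost and 13 gained a call. Of 974 values under the other alternatives, 880 kept it, 32 lost a call, 43 gained one and 19 changed sign. A change of sign counts only where the value was called or moved by more than its SE. Smaller changes of sign are among the kept values, such as Trpc6 for salt in SS, from 0.02 to -0.10 at the lowest with 1 library left out. Low counts limit Trpc6, which had no value under the filter of 100. The number of members called ranged, with 1 library left out, over 2 to 3 for salt in SS, 0 to 2 for salt in null, 1 to 1 for null against SS on high salt, 0 to 3 on low salt, 0 to 2 for the interaction, 1 to 3 for average salt and 2 to 3 for average genotype.

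Scaling to the library total moved the median of all genes by 0.387 (salt in SS), 0.121 (salt in null), 0.267 (null against SS on low salt), 0.254 (average salt) and 0.134 (average genotype), and by -0.265 for the interaction. Under it 7 members were called for salt in SS, 2 for salt in null, 0 for null against SS on high salt, 6 on low salt, 7 for average salt and 5 for average genotype. Of all genes, 55.3% were called under this scaling for salt in SS and 6.38% for salt in null. For null against SS, 3.67% were called on high salt and 25.1% on low salt, so these counts of members follow a shift of all genes. Trpv4 turned to 0.19 for salt in SS and 0.10 for null against SS on low salt, Trpm4 to 0.076 and Piezo1 to 0.10 for salt in null, Trpc1 to 0.15 for null against SS on low salt, and Piezo2 to -0.21 for the interaction. Scaling without mitochondrially encoded genes called 3 on low salt, beside 2.28% of all genes.

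With the tubule score as covariate 0 members were called for salt in SS, for null against SS on high and on low salt, for the interaction and for average salt. Of all genes, 0.241% passed for salt in SS, 6.38% on high salt and 0.0186% on low salt. On low salt Piezo1 kept a value of 0.32 ± 0.08 (SE; limma adjusted p = 0.192). The changes of sign with the tubule score were Trpv4 0.0738, Trpv2 -0.15, Piezo1 -0.0026 and Piezo2 -0.22 for salt in SS, Trpv2 0.0076 for null against SS on high salt, and Trpv2 -0.22, Piezo1 -0.046 and Piezo2 -0.087 for average salt. With the mitochondrial share 1 member was called for salt in SS, 2 for salt in null, 0 for the interaction and 1 for average salt, and Trpv2 turned to -0.12 for salt in SS, -0.24 for average salt and -0.099 for average genotype. With the smooth muscle score 2 were called for salt in null, 0 for null against SS on low salt and 0 for average genotype, and Piezo2 turned to -0.0046 for null against SS on low salt. With that score 0 of 16153 genes passed on low salt by limma, with 1811 at an unadjusted p under 0.05. The cause of these moves was not tested.

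For salt in null, 2 members were called under the filter of 100, the compared groups alone, library weights, edgeR and DESeq2. For null against SS on low salt, 2 were called under the filter of 100, 3 under library weights, 3 by DESeq2 and 0 with the compared groups alone, and Trpc1 turned to 0.035 under library weights. Quantile normalization called 1 for the interaction. Without the 2 libraries that stand apart the counts were 0 for salt in null, null against SS on low salt and the interaction, and 1 for average salt.

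Rats with the same number did not deviate together: r was -0.159 to 0.135 over 20 pairs, 2 pairs were over 0.1, and 3 rats correlated best with their own number. With the rat number as a block, 1 member was called for salt in null, Pkd1 (adjusted p = 0.0402) and not Trpv4 (adjusted p = 0.0513), 2 members were called for null against SS on low salt, 0 for the interaction and 1 for average salt.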
